A study of Arabidopsis thaliana with 4 samples.

Results

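The polygalacturonases of glycoside hydrolase family GH28 were followed in unopened floral buds of Arabidopsis thaliana, in the cdm1 mutant and in wild type plants. The family was given as 60 loci, and a member was taken as measured where the platform annotation ties a probe set to that 1 gene. By this rule 40 of the 60 loci were measured, each by 1 probe set, among 22746 probe sets on the array and 13286 loci with such a probe set. Another 10 loci share probe sets with further family members, and the remaining 10 were not analysed here. Among those 10 are QRT2 (AT3G07970), QRT3 (AT4G20050), ADPG2 (AT2G41850, listed as PGAZAT), PGA4 (AT1G02790), PGA3 (AT3G07830) and PGX1 (AT3G26610).

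The series holds 2 arrays of cdm1 buds and 2 of wild type buds. Both genotypes were Col-0 plants sampled 24 days after germination, and both are described as young, unopened buds, each array being a biological replicate. The labels name the mutant as cdm1 with no allele, and they give no treatment that differs between the genotypes. Values are log2 expression values made with RMA, a procedure that corrects background, equalises the arrays and summarises the probes of a probe set.

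Polygalacturonases cut the homogalacturonan backbone of pectin, the gel-like polymer of the primary wall and of the middle lamella that holds neighbouring cells together. Methylesterases first remove methyl groups from the polymer, which opens it to polygalacturonases and to pectate lyases, and acetylesterases remove acetyl groups. In anthers the family is known for freeing the 4 microspores of a meiotic tetrad from each other, through QRT2 and the tapetum-secreted QRT3, for opening the anther, through ADPG1, ADPG2 and QRT2, and for enzymes of the pollen tube wall. CDM1 (CALLOSE DEFECTIVE MICROSPORE1) encodes a CCCH zinc finger protein needed for normal callose around the microspores, and unopened buds hold anthers of many stages, among them those in which tetrad walls are made and dissolved.

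No measured polygalacturonase passed the test between cdm1 and wild type buds. In limma's fit over all 22746 probe sets, 0 of 40 members had a Benjamini-Hochberg adjusted p under 0.05, against 1.33% of all probe sets. At an unadjusted p of 0.05, 6 members passed, which is 15% of the family against 15.3% of all probe sets. Of these, 5 were higher in cdm1, against 7.7% of all probe sets, and 1 was lower, against 7.55%. The log2 differences, cdm1 minus wild type, ran from -0.55 to 0.42 with a median of -0.010, and the median over all probe sets was 0.0036. The arrays of the genotypes did not overlap for 17 members, 9 higher and 8 lower in cdm1, or 42.5% against 47.3% of all probe sets (23.7% higher and 23.6% lower).

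**Figure D1:**
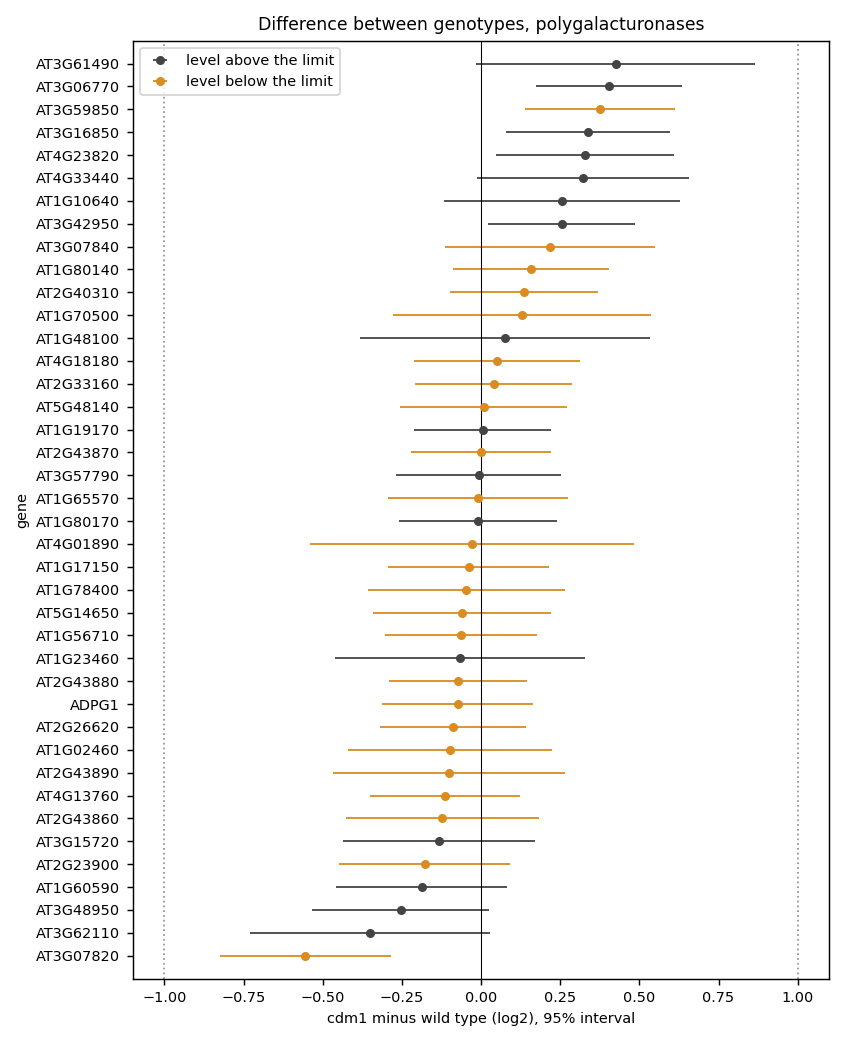
Difference between cdm1 and wild type buds (log2, horizontal axis) for the 40 measured polygalacturonases, ordered by size, with the 95% interval of limma's fit (n = 2 arrays per genotype). Dotted lines mark 2-fold changes, colours mark a mean level above or below 5.32, and all 40 intervals lie inside the dotted lines.

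The fit also bounds how large a difference in RMA values could have been missed. The 95% interval of the difference, taken from limma's moderated SE without adjustment for the number of genes, stayed within 2-fold in either direction for all 40 members, as it did for 96.6% of all probe sets. Of the 40 members, 24 had a mean level below 5.32, where 7463 of 7582 probe sets also stayed within 2-fold. Whether readings this dim lay above background was not tested. For these 24 members the interval therefore bounds the RMA difference only, and a 2-fold change in transcript amount is not excluded. The lowest bound was -0.83, for AT3G07820, and the highest was 0.86, for AT3G61490. Differences of at least 1.2-fold were measured for 8 members, 6 higher and 2 lower in cdm1, or 20% of the family against 18.1% of all probe sets.

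The members were divided by a limit on mean level, which is set by a share of the array and is not a test of detection. The dimmest 33.3% of all probe sets read below 5.32 as a mean over the 4 arrays, and 24 of 40 members (60%) lay below that limit, with 16 above it. No member had its cdm1 mean on one side and its wild type mean on the other. Probe sets differ in how well they bind their target, so the order of these readings is not an order of transcript amounts, and whether a dim reading lay above background was not tested.

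**Figure D2:**
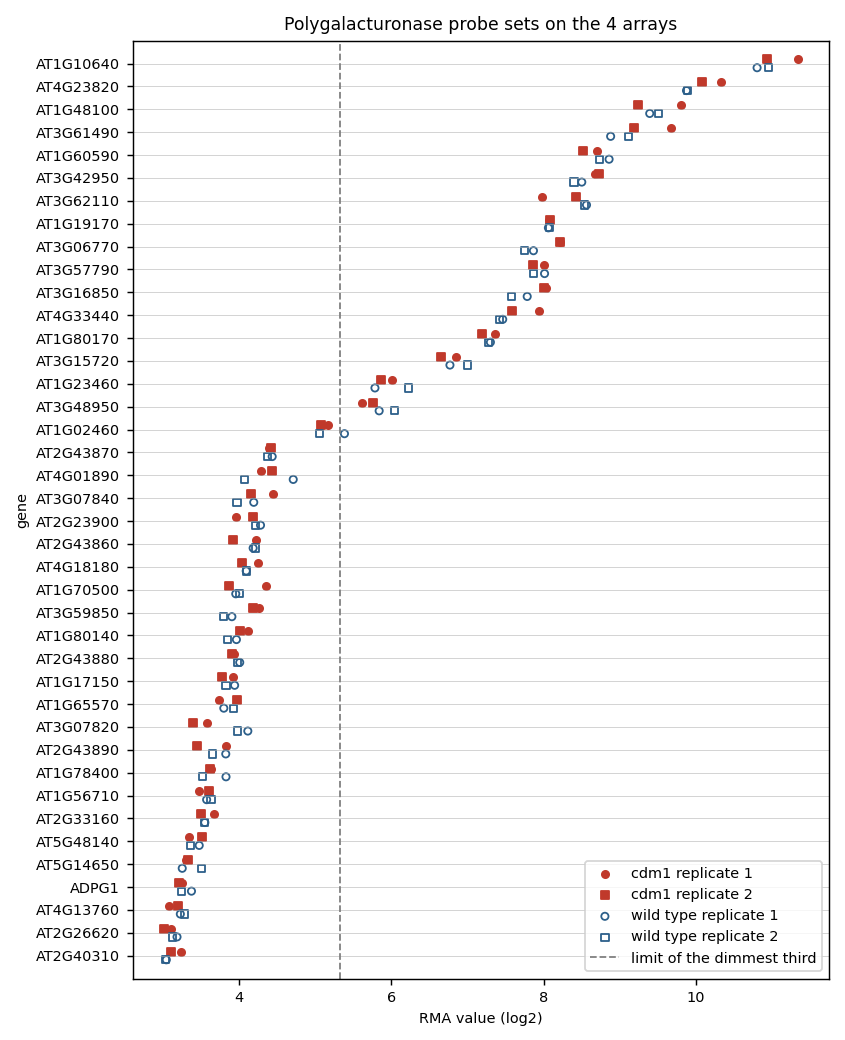
RMA values (log2, horizontal axis) of the 40 measured polygalacturonases on the 2 cdm1 arrays (filled) and the 2 wild type arrays (open), ordered by mean. The dashed line at 5.32 bounds the dimmest 33.3% of probe sets, with 16 members to its right and 24 to its left.

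Among the 16 members above the limit, the highest reading came from AT1G10640. It read 11.34 and 10.93 in cdm1 buds, against 10.80 and 10.96 in wild type buds. The genotypes overlapped, since the second cdm1 array lay between the wild type arrays, and the difference of 0.26 (SE 0.15) had a limma adjusted p of 0.486. AT4G23820 read 10.33 and 10.08 in cdm1 buds, against 9.88 and 9.89 in wild type buds. Both cdm1 arrays were above both wild type arrays, with a difference of 0.33 (SE 0.11, limma adjusted p = 0.267). AT1G48100 read 9.80 and 9.24 in cdm1 buds, against 9.39 and 9.51 in wild type buds. Here the cdm1 arrays lay on either side of the wild type pair, and the difference was 0.07 (SE 0.19, limma adjusted p = 0.904).

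Further members with strong signal had differences of both signs. AT3G61490 read 9.67 and 9.18 in cdm1 buds, against 8.88 and 9.12 in wild type buds, with a difference of 0.42 (SE 0.18, limma adjusted p = 0.341). The genotypes were separated only narrowly, by the gap between the second cdm1 and the second wild type array. AT1G60590 read 8.70 and 8.51 in cdm1 buds, against 8.86 and 8.74 in wild type buds. Both cdm1 arrays were lower, by 0.19 on average (SE 0.11, limma adjusted p = 0.480). AT3G62110 read 7.98 and 8.42 in cdm1 buds, against 8.56 and 8.54 in wild type buds. It had the lowest difference of the members above the limit, at -0.35 (SE 0.15, limma adjusted p = 0.357), and its cdm1 arrays stood further apart than the genotype means.

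Of the 16 members above the limit, 4 combined separated genotypes with an unadjusted p under 0.05, all higher in cdm1, AT4G23820 among them. That p was reached by 25% of the 16, against 18.4% of all probe sets above the limit. Genotypes were separated, in either direction, for 56.25% of the 16, against 53.0% of all probe sets above the limit. AT3G06770 had the smallest p of the 4, reading 8.21 and 8.22 in cdm1 buds, against 7.87 and 7.75 in wild type buds. Its cdm1 arrays were nearly identical and its difference was 0.40 (SE 0.094, limma adjusted p = 0.134). AT3G16850 read 8.03 and 8.01 in cdm1 buds, against 7.78 and 7.58 in wild type buds, a difference of 0.34 (SE 0.11, limma adjusted p = 0.223). AT3G42950 read 8.68 and 8.73 in cdm1 buds, against 8.50 and 8.40 in wild type buds, a difference of 0.25 (SE 0.095, limma adjusted p = 0.288). In these 3 genes the cdm1 arrays differed by at most 0.05, and the wild type arrays by 0.10 to 0.20.

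AT4G33440 also had both cdm1 arrays higher, at 7.94 and 7.58 in cdm1 buds, against 7.46 and 7.42 in wild type buds. Most of its difference of 0.32 (SE 0.14, limma adjusted p = 0.341) came from the first cdm1 array. AT3G48950 had both cdm1 arrays lower, at 5.61 and 5.76 in cdm1 buds, against 5.84 and 6.04 in wild type buds, a difference of -0.25 (SE 0.11, limma adjusted p = 0.363). It was the dimmest member above the limit.

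Of the other members above the limit, AT1G19170, AT3G57790 and AT1G80170 gave nearly equal mean values in both genotypes. AT1G19170 read 8.07 and 8.08 in cdm1 buds, against 8.06 and 8.08 in wild type buds. Its 95% interval ran from -0.21 to 0.22, which makes it one of the most tightly bounded members. AT3G57790 read 8.00 and 7.86 in cdm1 buds, against 8.01 and 7.86 in wild type buds, with an interval from -0.27 to 0.25. AT1G80170 averaged 7.28 ± 0.12 in cdm1 buds and 7.29 ± 0.018 in wild type buds (SD, n = 2 arrays each), with an interval from -0.26 to 0.24. AT3G15720 had a difference of -0.13 (SE 0.12), with overlapping genotypes. The probe set of AT1G23460 is marked by Affymetrix as shared between transcripts, so its value may include a relative. It had a difference of -0.07 (SE 0.16).

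Differences of at least 1.2-fold were measured for 6 of the 16 members above the limit (37.5%), against 21.8% of all probe sets above it. The 6 are AT3G06770, AT3G16850, AT4G23820, AT3G61490 and AT4G33440, higher in cdm1, and AT3G62110, lower in cdm1. AT1G10640, AT3G42950 and AT3G48950 lay just under that size, each at 1.19-fold. None of these passed limma's test, and the median difference of the 16 was 0.040, against 0.00013 for all probe sets above the limit.

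The 24 members below the limit include the lowest difference of the 40 measured members, that of AT3G07820. It read 3.58 and 3.40 in cdm1 buds, against 4.11 and 3.98 in wild type buds. Both cdm1 arrays were lower, and the difference of -0.55 (SE 0.11) had the smallest p of the 40 members, with a limma adjusted p of 0.0945. All 4 readings belong to the dimmest part of the array, so the difference is a ratio of RMA values only. In whole buds, fewer cells of a type and less RNA per cell cannot be told apart.

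AT3G07820 opens a run of 4 polygalacturonase genes on chromosome 3, AT3G07820 to AT3G07850, that follow each other with no other protein-coding gene between them. PGA3 is the second of them. The third, AT3G07840, read 4.44 and 4.16 in cdm1 buds, against 4.19 and 3.97 in wild type buds. Its genotypes overlapped and its difference was 0.22 (SE 0.14, limma adjusted p = 0.504), of the opposite sign to that of AT3G07820. The last gene of the run, AT3G07850, has no probe set of its own. Readings of probe sets tied to several family loci are given at the end. The 5 such runs in the family hold 15 of the 60 loci, and 5 of these 15 have a probe set of their own.

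A second run with measured genes lies on chromosome 2 and consists of AT2G43870, AT2G43880 and AT2G43890, near the member AT2G43860. AT2G43870 averaged 4.41 ± 0.013 in cdm1 buds and 4.41 ± 0.041 in wild type buds (SD, n = 2 arrays each). AT2G43880 was at -0.07 (SE 0.089), AT2G43890 at -0.10 (SE 0.15) and AT2G43860 at -0.12 (SE 0.12) in cdm1 minus wild type. All 4 genes read below the limit in both genotypes, and none had an unadjusted p under 0.05.

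AT3G59850 was the other dim member with a small p. It read 4.27 and 4.19 in cdm1 buds, against 3.91 and 3.80 in wild type buds. Both cdm1 arrays were higher, with a difference of 0.38 (SE 0.097, limma adjusted p = 0.162). Replicates of each genotype lay within 0.11 of each other.

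ADPG1 (AT3G57510), which acts in the opening of anthers and of seed pods, gave a reading near the lower end of the array. It read 3.25 and 3.21 in cdm1 buds, against 3.37 and 3.24 in wild type buds. The genotypes overlapped, and the 95% interval of the difference ran from -0.31 to 0.16. NIMNA (AT2G33160), known for cell elongation in the early embryo, averaged 3.59 ± 0.12 in cdm1 buds and 3.55 ± 0.0057 in wild type buds (SD, n = 2 arrays each). The difference of 0.04 (SE 0.10) had a limma adjusted p of 0.903.

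The other 15 dim members were AT1G02460, AT1G17150, AT1G56710, AT1G65570, AT1G70500, AT1G78400, AT1G80140, AT2G23900, AT2G26620, AT2G40310, AT4G01890, AT4G13760, AT4G18180, AT5G14650 and AT5G48140. Their single readings ran from 3.02 for AT2G26620 to 5.38 for AT1G02460. Their differences ran from -0.18 for AT2G23900 to 0.16 for AT1G80140. AT2G23900 also had the smallest p of these 15, with limma's adjusted p at 0.50. The wild type arrays of AT4G01890 were the furthest apart of any member, at 4.71 and 4.07, around cdm1 readings of 4.29 and 4.43.

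The spread between the cdm1 arrays was large against the genotype differences. For 26 of 40 members (65%) the cdm1 replicates lay further apart than the genotype means, against 53.0% of all probe sets, while for the wild type replicates this held for 17 members (42.5%), against 45.6%. The median SD of the 16 members above the limit was 0.128 in cdm1 buds and 0.083 in wild type buds, against 0.092 and 0.066 over all probe sets above the limit. The first cdm1 array was the higher one for 11 of these 16 members (68.75%), against 60.0% of all probe sets above the limit. For the 16 members the median gap was 0.16, against 0.046 for all probe sets above the limit. The gap was 0.56 for AT1G48100, 0.49 for AT3G61490, 0.40 for AT1G10640 and 0.36 for AT4G33440, and it ran the other way for AT3G62110, at -0.44.

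**Figure D3:**
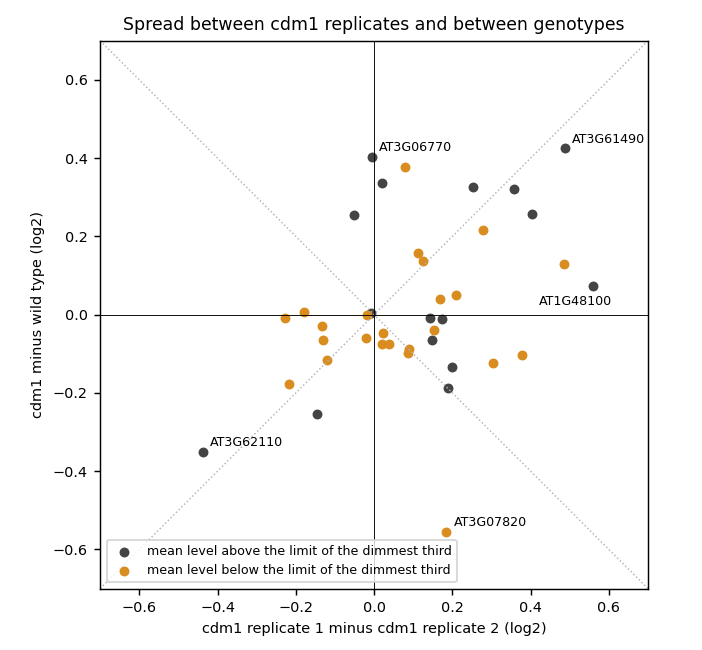
Gap between the cdm1 replicates (replicate 1 minus replicate 2, log2, horizontal axis) against the difference between cdm1 and wild type means (log2, vertical axis) for the 40 measured polygalacturonases. Points to the left or right of the dotted diagonals, 26 of 40, have cdm1 replicates further apart than the genotypes, and AT3G06770 and AT3G07820 are among the members for which the genotypes are further apart.

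The differences of several members depended on which cdm1 array was used. With cdm1 replicate 2 left out, the difference was 0.67 for AT3G61490, 0.50 for AT4G33440, 0.46 for AT1G10640, 0.45 for AT4G23820 and -0.57 for AT3G62110. With cdm1 replicate 1 left out, it was 0.18 for AT3G61490, 0.14 for AT4G33440, 0.055 for AT1G10640, 0.20 for AT4G23820 and -0.13 for AT3G62110. AT3G62110 was then the 1 member called in any of the left-out fits, lower in cdm1 without cdm1 replicate 2 (limma adjusted p = 0.0486), where 4.57% of all probe sets were called. AT1G48100 turned its sign, at 0.35 when cdm1 replicate 2 was left out and at -0.21 when cdm1 replicate 1 was. AT3G06770 was steadier, with differences from 0.35 to 0.46 over the 4 fits that leave out 1 array, and AT3G07820 ran from -0.65 to -0.46.

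Marker lists of anther and flower cells were read beside the family. Of 20 listed tapetum genes, 6 were measured, all above the limit and all higher on both cdm1 arrays, with a mean level of 10.18 and 10.17 in cdm1 buds, against 9.78 and 9.51 in wild type buds. Of 9 listed meiocyte genes, 5 were measured, with a mean of 6.05 and 6.12 in cdm1 buds, against 6.47 and 6.26 in wild type buds. None of these genes passed limma's test. An unadjusted p under 0.05 held for 4 tapetum and 3 meiocyte genes (66.7% and 60%), against 15.3% of all probe sets. The 4 tapetum genes, EXL1, EXL3, EXL5 and ATA27, have close locus numbers on chromosome 1, from AT1G75880 to AT1G75940. Their differences ran from 0.41 to 0.99. The other measured tapetum genes, A9 and AMS, were at 0.12 and 0.18. Both cdm1 arrays lay above both wild type arrays for 23.7% of all probe sets. All 5 measured late pollen markers, of 15 listed, read below 5.32 on every array, with a mean of 4.46 and 4.20 in cdm1 buds, against 4.30 and 4.15 in wild type buds. Of these 5, 2 had an unadjusted p under 0.05, with ACT12 higher (0.38) and PLIM2a lower (-0.49) in cdm1. The 2 measured carpel and ovule markers, of 6 listed, averaged 6.44 and 6.46 in cdm1 buds, against 6.38 and 6.31 in wild type buds. The part of these cell types in the values of the polygalacturonases was not tested.

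Among the other pectin genes, 1 gene passed the test. AT3G09405, a pectin acetylesterase gene, read 5.64 and 5.60 in cdm1 buds, against 6.69 and 6.80 in wild type buds. It fell 2.19-fold in cdm1 (log2 difference -1.13, SE 0.095, limma adjusted p = 0.00848). The call was lost when either wild type array was left out, at a limma adjusted p of 0.104 without replicate 1 and 0.136 without replicate 2, and in those fits limma called 0 probe sets of the whole array (1619 and 2133 at an unadjusted p under 0.05). A replicate block in the fit also ended the call (limma adjusted p = 0.125). The other 5 of 6 measured acetylesterase genes, of 12 listed, did not pass.

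Pectate lyases, which split the same backbone by elimination instead of hydrolysis, also had no called gene. Of 26 listed genes, 23 were measured and 0 passed limma's test, against 1.33% of all probe sets. At an unadjusted p under 0.05 there were 4 (17.4%), 2 higher and 2 lower in cdm1, against 15.3% of all probe sets. Differences of the 23 genes ran from -0.88 to 0.51 with a median of -0.011. AT1G11920 had the smallest p and read 5.86 and 6.37 in cdm1 buds, against 7.07 and 6.90 in wild type buds. Its difference was -0.88 (SE 0.18, limma adjusted p = 0.102), and it was called without cdm1 replicate 2 (-1.13, limma adjusted p = 0.0134). It was not called in the other 3 left-out fits, at -0.62 without cdm1 replicate 1 (limma adjusted p = 0.09998) and with limma adjusted p-values of 0.594 and 0.406 when the first or the second wild type array was left out.

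Few genes that make or modify pectin upstream of these enzymes were measured. GAUT15, of the galacturonosyltransferase family that builds homogalacturonan, was the 1 measured gene of 17 listed for pectin synthesis. It averaged 7.24 ± 0.094 in cdm1 buds and 6.97 ± 0.039 in wild type buds (SD, n = 2 arrays each), with a difference of 0.27 (SE 0.098, limma adjusted p = 0.272). PME61 (AT3G59010), a pectin methylesterase, was the 1 measured gene of 8 listed. It read 5.36 and 6.04 in cdm1 buds, against 5.18 and 5.11 in wild type buds, a difference of 0.56 (SE 0.22, limma adjusted p = 0.305). The difference was 0.90 without cdm1 replicate 1 and 0.22 without cdm1 replicate 2. None of the 4 listed inhibitors of polygalacturonases and methylesterases was analysed here.

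**Figure D4:**
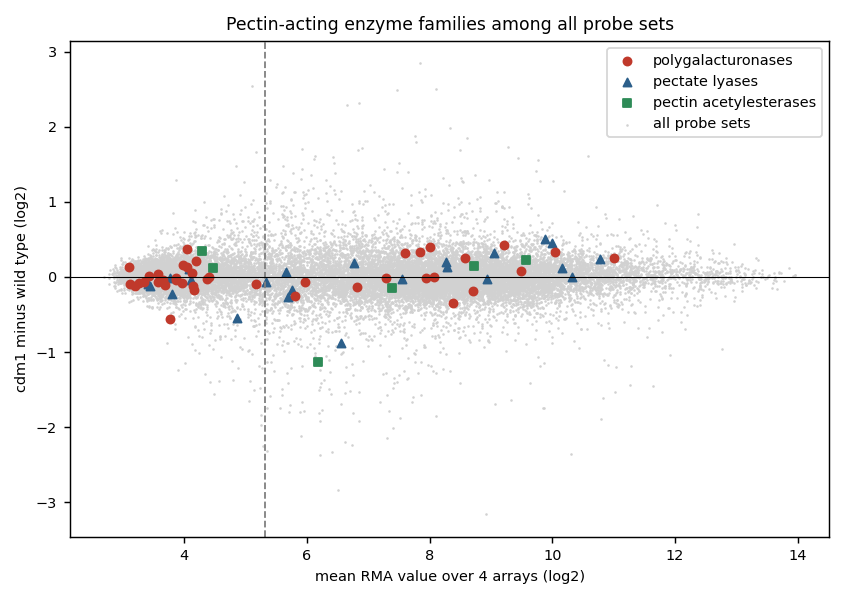
Mean RMA value over the 4 arrays (log2, horizontal axis) against the difference between cdm1 and wild type buds (log2, vertical axis) for 40 polygalacturonases, 23 pectate lyases and 6 pectin acetylesterases over all 22746 probe sets in grey. The dashed line marks 5.32, and the 1 of these family genes beyond -1 is the acetylesterase gene AT3G09405. Probe sets tied to several polygalacturonase loci are among the grey points.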

How the data were processed

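Total RNA (500 ng per sample, per the labels) was hybridised to Affymetrix Arabidopsis arrays. The deposited table holds a log2 expression value for each probe set on each array, and the submitters' processing notes name RMA and affy, an R package, with no version. That the scale is log2 was read from the values, which run from 2.64 to 14.0 with array medians between 7.21 and 7.24. No scanner file or detection call was used here, so signal over background and a hybridisation batch were not tested. Precision is limited by the number of arrays.

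GEO's platform annotation named the probe sets: 13513 have 1 gene symbol, 503 have several and 8730 are not listed. Of the first, 13436 were tied to a locus of RefSeq's gene table (TAIR10.1), used for names and gene order only. No build is named in the sources used here.

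With limma 3.58.1 in R 4.3.3, all 22746 probe sets were fitted with genotype as the single term, and variances were moderated by empirical Bayes. P-values are two-sided and were adjusted by Benjamini-Hochberg across the whole table, with calls at 0.05. Intervals at 95% used the moderated SE with 6.00 degrees of freedom. The same step was also run on simulated data with known changes. Their variances were drawn from the fit itself, so that run does not test the fit's own assumptions. As alternatives, arrays were quantile normalised again or centred on their medians, the dimmest 33.3% of probe sets or the shared ones were left out, a variance trend was used with and without robust estimation, the replicate number entered as a block, and each array was left out in turn, in which case the lone array is assumed to vary like the other genotype.

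The members and gene lists were chosen with earlier results of these data known. Values by array, or means, are given for called members, the 10 members with the smallest p and the 10 with the highest mean, and from each pectin list for called genes or the gene with the smallest p. ADPG1, AT3G07840 and AT4G01890 were added after their values were seen. Means are also given for AT1G80170, AT2G43870 and AT2G33160, which lie outside these ranks. A locus with several probe sets counts by the one with the highest mean.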

Additional observations from a re-analysis of the deposited data

How the results depend on the processing

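No fit of all 4 arrays called any of the 40 single-gene members. Their count stayed at 0 under the 7 alternatives that keep every array. At an unadjusted p of 0.05, 4 (of 16 tested, without the dimmest probe sets) to 9 members passed. A probe set tied to 2 polygalacturonase loci did pass in some of these fits and is given at the end. Over all probe sets the 303 calls became 465 with robust estimation and 0 with the replicate block (3110 at an unadjusted p of 0.05), and ranged from 0 to 1040 when 1 array was left out, at 0 in both fits that lack a wild type array and at 1040 in the fit that lacks cdm1 replicate 2. The block leaves 1 residual degree of freedom. Arrays of the same number did not deviate together (correlation of deviations from group means -0.066), so the numbers are not taken as pairs. The pectin acetylesterase count of 1 was 0 with the block, at an unchanged AT3G09405 difference of -1.13 (limma adjusted p = 0.125), and 0 to 1 when 1 array was left out. The cause of these shifts was not tested.

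Signs turned for members whose differences lay between -0.12 and 0.13. AT2G43870 is counted among them, although its means were equal in both genotypes and it had no sign to turn. After quantile normalisation AT1G80170 was at 0.0014, AT3G57790 at 0.0017 and AT2G43870 at -0.021. After median centring AT1G80170 was at 0.00066, AT3G57790 at 0.0030 and AT1G65570 at 0.0010. Leaving out 1 array turned the sign of 19 members, whose differences ranged from -0.27 to 0.029 for AT2G43860, -0.11 to 0.37 for AT1G70500, -0.26 to 0.065 for AT1G02460, -0.29 to 0.086 for AT2G43890, -0.13 to 0.0014 for AT1G56710, -0.19 to 0.066 for AT5G14650, -0.054 to 0.16 for AT4G18180, -0.29 to 0.16 for AT1G23460, -0.044 to 0.12 for AT2G33160, -0.21 to 0.35 for AT1G48100, -0.12 to 0.037 for AT1G17150, -0.20 to 0.11 for AT1G78400, -0.35 to 0.29 for AT4G01890, -0.096 to 0.076 for AT1G80170, -0.12 to 0.10 for AT1G65570, -0.081 to 0.065 for AT3G57790, -0.082 to 0.098 for AT5G48140, -0.0034 to 0.013 for AT1G19170 and -0.029 to 0.029 for AT2G43870.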

Other observations

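Beyond the single-gene members, 4 probe sets are each tied to 2 or 3 polygalacturonase loci and to no other gene, so no gene is named for them. One of them, tied to 2 loci and chosen here after its values were seen, read 4.02 and 4.12 in cdm1 buds, against 5.37 and 4.88 in wild type buds. Its log2 difference of -1.06 (SE 0.17) is lower than that of any single-gene member, and its limma adjusted p was 0.0554. It passed after quantile normalisation (limma adjusted p = 0.0377), median centring (0.0464), with the variance trend (0.0475) and with robust estimation (0.0280). With the replicate block the limma adjusted p was 0.242, and over the fits that leave out 1 array it ran from 0.0433 without cdm1 replicate 2 to 0.233 without wild type replicate 1, with differences from -1.30 to -0.81. All 4 readings lie at or near the dimmest 33.3% of the array, and a signal above background was not tested. The other 3 probe sets had differences from -0.019 to 0.11 and mean readings from 2.95 to 3.34.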
